A study of Mus musculus with 13 samples.

Results

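A set of 10 genes that astrocytes use to clear transmitters, move water and ions and keep their identity was followed in bulk RNA of the mouse brain during cuprizone feeding and after it. Its members are Slc1a2, Slc1a3, Glul and Slc6a11 for glutamate and GABA handling, Aqp4, Kcnj10 and Slc4a4 for water and ions, and Aldh1l1, Fgfr3 and Sox9 for identity. The genes were chosen by name, and all 10 were found among 55401 gene identifiers and among the 14985 genes that passed the filter on low counts. The material was 1 snap-frozen brain hemisphere per mouse from male C57BL/6J mice. They were aged 6 to 8 weeks at the start of the study per the labels, while the published description gives about 10 weeks. CPZ mice (4 libraries) ate chow with 0.3% cuprizone, a copper chelator that injures oligodendrocytes, for 4 weeks and were killed at week 4. RCV mice (4 libraries) ate the same chow for 4 weeks and then control chow for 2 weeks, and CTL mice (5 libraries) ate control chow for 6 weeks, so both were killed at week 6. CPZ mice were therefore killed 2 weeks earlier in the study than both other groups, and diet and time of collection cannot be told apart in those comparisons. The labels and the published methods give 4 CTL, 3 CPZ and 3 RCV mice, fewer than the 13 libraries analysed. A published figure legend instead counts 13 samples, 5 CTL, 4 CPZ and 4 RCV. Whether each library came from a mouse of its own is therefore not known.

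Astrocytes take up the glutamate that neurons release, convert it to glutamine and return it. They also carry potassium and water between synapses and blood vessels, through channels that crowd at their endfeet on the vessel wall. In demyelinated tissue astrocytes become reactive and express intermediate filaments such as GFAP at a high level. The 10 genes are widely used markers of astrocytes, but none is confined to them in every brain region: oligodendrocytes also express Glul and Kcnj10, ependymal cells express Sox9 and Aqp4, and radial glia express several of them.

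Library totals lay between 4605100 and 8197289 estimated counts. A level is given in TPM (RNA-seq reads scaled to transcript length and to the library) and a difference as a log2 fold change of counts scaled to library size by TMM, with its standard error. A gene was called changed where edgeR's quasi-likelihood F test gave an adjusted p below 0.05 (Benjamini-Hochberg, 14985 genes). The median log2 fold change over these genes was -0.02 for CPZ against CTL, -0.004 for RCV against CTL, and for CPZ against RCV it was -0.007. The mean log2-CPM of 9 choroid plexus and ependymal markers was 3.21 to 5.41 in CTL and CPZ libraries, 3.44 and 4.67 in RCV 1 and RCV 2, and 0.975 and 1.28 in RCV 3 and RCV 4. Libraries thus differed in the level of these markers. Markers of hippocampus, of striatum and of thalamus and midbrain also varied between libraries of a group. Whether the hemispheres held different tissue was not tested. In whole-tissue RNA, fewer astrocytes and less RNA per astrocyte cannot be told apart.

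Promoters are shown for 3 genes called in the comparisons below, Slc1a3 and Aldh1l1, which were higher in CPZ, and Glul, which was lower. The promoter table of RefSeq held 8 of the 10 genes, with 10 start sites, and had none for Aqp4 or Sox9. Each sequence ends at the base before the RefSeq start (build GRCm38.p6), except that of Aldh1l1, which was cut 4 bases earlier to leave out annotated exon. Slc1a3 is shown from the minus strand of chr15:8710808-8711057, Aldh1l1 from the plus strand of chr6:90550543-90550788 and Glul from the plus strand of chr1:153899679-153899928. Capitals mark the CCAAT box (CCAAT, or ATTGG on the other strand) and a STAT site (TTCNNNGAA).
Slc1a3: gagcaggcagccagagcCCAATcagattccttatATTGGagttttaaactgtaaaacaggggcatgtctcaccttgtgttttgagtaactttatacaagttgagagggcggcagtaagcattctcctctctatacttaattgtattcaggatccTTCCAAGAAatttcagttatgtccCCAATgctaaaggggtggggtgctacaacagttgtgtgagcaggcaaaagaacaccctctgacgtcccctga
Aldh1l1: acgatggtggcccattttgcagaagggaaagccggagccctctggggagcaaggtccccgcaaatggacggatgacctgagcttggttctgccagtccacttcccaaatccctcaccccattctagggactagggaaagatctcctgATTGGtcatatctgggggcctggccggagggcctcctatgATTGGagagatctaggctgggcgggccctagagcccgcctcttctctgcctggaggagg
Glul: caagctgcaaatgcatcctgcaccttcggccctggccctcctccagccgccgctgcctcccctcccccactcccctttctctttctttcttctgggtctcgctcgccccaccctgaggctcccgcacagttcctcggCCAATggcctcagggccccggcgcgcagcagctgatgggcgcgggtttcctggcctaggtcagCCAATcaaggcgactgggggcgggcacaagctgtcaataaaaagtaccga

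The CCAAT box, a common promoter element bound by NF-Y, lay 3 times before Slc1a3 and 2 times each before Aldh1l1 and Glul, so genes that moved in opposite directions carried it. It was found in the 250 bases before 33.8% of 32851 RefSeq starts on either strand, and before 6 of the 10 starts of these genes. It was added to the search after the sequences had been read. The STAT site, which STAT3 can bind, was found before 7.02% of all starts and before 1 of the 10, that of Slc1a3, where it spans bases 96 to 88 before the start. Neither the NFI half-site (TTGGCA, 12.3% of all starts) nor the SOX core (AACAAT, 9.42%) was found in the 10 windows on either strand. None of these motifs overlapped another in the sequences shown. A match of letters is a description of the window and not of binding.

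In CPZ mice the 10 genes did not move as one. Against CTL, 4 of the 10 were called higher, Aqp4, Sox9, Aldh1l1 and Slc1a3, by 1.28-fold to 1.46-fold. Glul was called lower, by 15.3%, and the other 5 were not called. Over all genes tested, 7.66% were called higher in CPZ, 2.5% lower and 10.2% in either direction. The median log2 fold change of the 10 genes was 0.17, and they spanned -0.25 to 0.55. The libraries of CPZ and CTL did not overlap in CPM (counts scaled to library size by TMM) for 5 of the 10, beside 13.1% of all genes.

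After 2 weeks on control chow, 1 of the 10 genes was called against CTL, Aqp4, which was higher. In that comparison 0.36% of all genes were called higher and 0.374% in either direction, and the median of the 10 genes was 0.07. Aqp4 was also the 1 gene of the 10 whose RCV and CTL libraries did not overlap, beside 2.9% of all genes. Between CPZ and RCV, Sox9 and Aldh1l1 were called higher in CPZ and Fgfr3 and Glul lower, where 5.13% of all genes were called higher, 1.88% lower and 7.01% in either direction. The same 4 genes had CPZ and RCV libraries that did not overlap, beside 13.2% of all genes, and the median of the 10 was 0.12. The 3 comparisons share libraries pairwise, so their values are given side by side and are not independent.

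**Figure D1:**
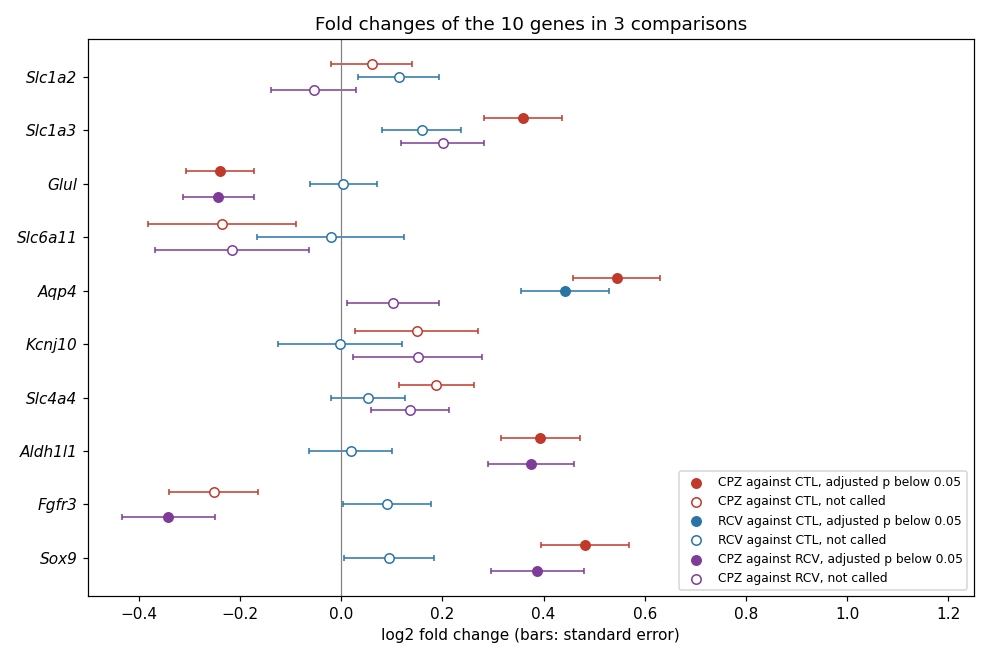
Log2 fold changes (x axis) of the 10 genes (y axis) (CPZ against CTL in red, RCV against CTL in blue, CPZ against RCV in purple), with standard errors as bars; filled points have an adjusted p below 0.05. Aqp4 is the 1 gene with a filled point for RCV against CTL, while Glul lies below 0 by about the same amount against both other groups.

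The levels of the 10 genes covered a wide range. In CTL libraries Glul had the highest mean, 1020 TPM, followed by Slc1a2 at 502, Slc1a3 at 245, Slc6a11 at 192, Kcnj10 at 124, Slc4a4 at 87.1, Fgfr3 at 80.5, Aqp4 at 55.4, Aldh1l1 at 45.1 and Sox9 at 17.9 TPM. The ranges over the CTL libraries overlapped for 3 pairs of neighbours in this order, Slc1a3 and Slc6a11, Slc4a4 and Fgfr3, and Aqp4 and Aldh1l1. In CPZ the order was the same except that Aqp4 (80.2 TPM) stood above Fgfr3 (66.4 TPM), and the ranges of these 2 genes overlapped there. In RCV the order was that of CTL.

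**Figure D2:**
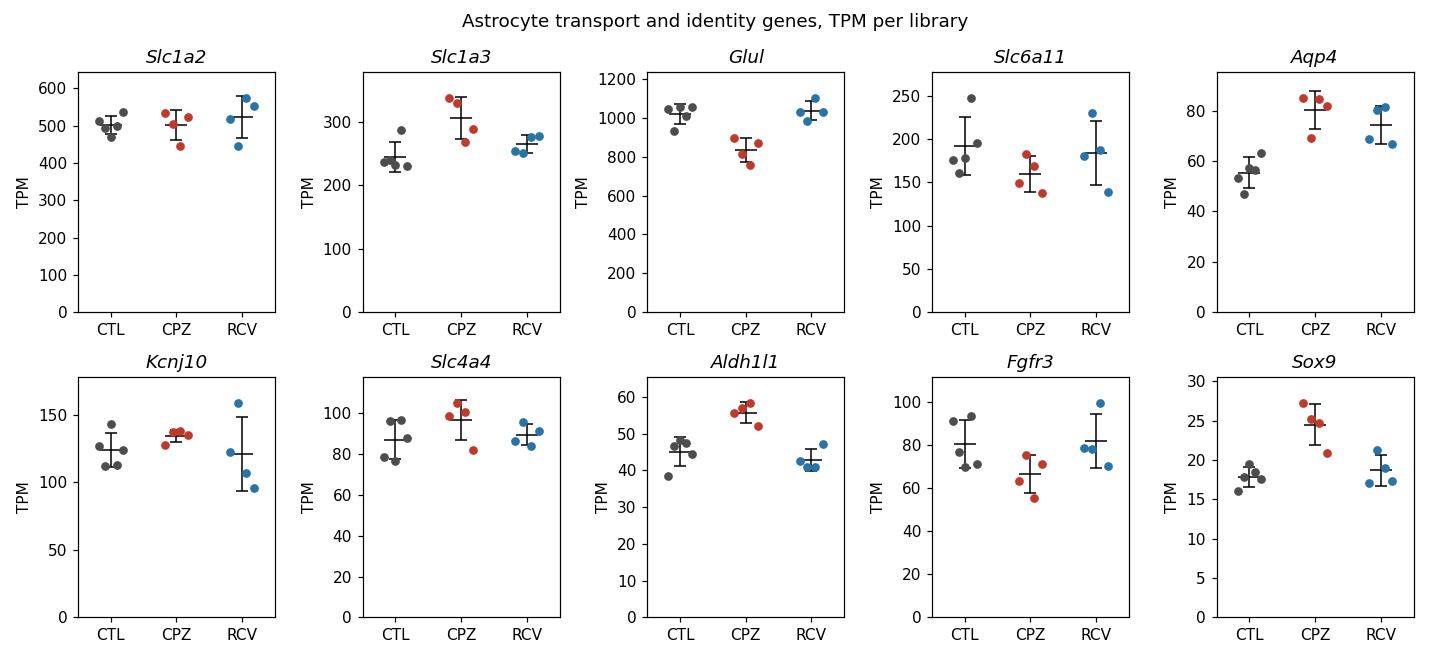
TPM (y axis, from 0) of each of the 10 genes in every library of CTL (5), CPZ (4) and RCV (4), with the mean and SD as black bars. All CPZ and RCV points of Aqp4 lie above the highest CTL point of 63.3 TPM, while for Aldh1l1 the RCV points lie among the CTL points and for Sox9 all but RCV 2 (21.3 TPM) do.

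Slc1a2 encodes GLT-1, the main glutamate transporter of the adult forebrain (ENSMUSG00000005089.15, GRCm38 chromosome 2, 102658659 to 102790784, plus strand). Its levels were 513, 494, 469, 498 and 536 TPM in CTL 1 to 5, 534, 505, 444 and 523 TPM in CPZ 1 to 4, and 516, 446, 575 and 552 TPM in RCV 1 to 4. The 3 groups overlapped, and the highest values were those of RCV 3 and RCV 4. None of the differences was called, at 0.06 ± 0.08 on the log2 scale (adjusted p = 0.745) for CPZ against CTL, 0.11 ± 0.08 (adjusted p = 0.953) for RCV against CTL and -0.05 ± 0.08 (adjusted p = 0.804) for CPZ against RCV.

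Slc1a3 encodes GLAST, the other astrocytic glutamate transporter, which is also strong in Bergmann glia and in radial glia (ENSMUSG00000005360.14, chromosome 15, 8634124 to 8710764, minus strand). It stood at 237, 240, 232, 287 and 230 TPM in CTL 1 to 5, at 339, 331, 269 and 288 TPM in CPZ 1 to 4, and at 254, 252, 276 and 278 TPM in RCV 1 to 4. CPZ libraries were higher than CTL libraries apart from CTL 4, which lay above CPZ 3 and just below CPZ 4. CPZ exceeded CTL by 0.36 ± 0.08 on the log2 scale (adjusted p = 0.00508), and the difference was 0.16 ± 0.08 for RCV against CTL (adjusted p = 0.819) and 0.20 ± 0.08 for CPZ against RCV (adjusted p = 0.182). The RCV mean lay between the means of the other groups and was not called against either.

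Glul encodes glutamine synthetase, which turns glutamate and ammonia into glutamine (ENSMUSG00000026473.16, chromosome 1, 153899944 to 153909723, plus strand). Its levels were 1046, 932, 1059, 1009 and 1054 TPM in CTL 1 to 5, 896, 812, 757 and 871 TPM in CPZ 1 to 4, and 1031, 983, 1105 and 1032 TPM in RCV 1 to 4. Every CPZ library was below every CTL and every RCV library. Its log2 fold change came to -0.24 ± 0.07 for CPZ against CTL (adjusted p = 0.0292), -0.24 ± 0.07 for CPZ against RCV (adjusted p = 0.0474) and 0.004 ± 0.07 for RCV against CTL (adjusted p = 0.999). Both calls are near the threshold. The first held in 19 of 25 alternatives. It was lost without CTL 1, CTL 3, CTL 5, CPZ 2 or CPZ 3 (edgeR adjusted p = 0.0758, 0.0647, 0.0654, 0.0988 and 0.118). It was also lost with the replicate number as a block (edgeR adjusted p = 0.0972). The second was lost in 14 of 25 alternatives (adjusted p up to 0.22). The 11 mature oligodendrocyte markers were lower in CPZ as well, with sums of 981 to 1509 TPM in CPZ, 2210 to 4070 TPM in CTL and 2924 to 4822 TPM in RCV, and the part of oligodendrocyte RNA in the Glul difference was not tested. Teddm2, which overlaps Glul on the opposite strand, held 8 to 31 counts per library, against 5666 or more of Glul.

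Slc6a11 encodes GAT-3, a GABA transporter of astrocytes (ENSMUSG00000030307.8, chromosome 6, 114131241 to 114249952, plus strand). It stood at 176, 161, 178, 248 and 195 TPM in CTL 1 to 5, at 149, 183, 169 and 137 TPM in CPZ 1 to 4, and at 181, 230, 188 and 139 TPM in RCV 1 to 4. The groups overlapped, and the spread within CTL and RCV (coefficients of variation of 17.6% and 20.1%) was among the widest of the 10 genes. On the log2 scale the difference was -0.24 ± 0.15 for CPZ against CTL (adjusted p = 0.393), of a size close to that of Glul with a standard error of 0.15 in place of 0.07.

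Aqp4 encodes the water channel of astrocyte endfeet (ENSMUSG00000024411.11, chromosome 18, 15389496 to 15410982, minus strand). Its levels were 53.2, 47.0, 57.4, 56.4 and 63.3 TPM in CTL 1 to 5, 85.2, 69.1, 84.7 and 81.8 TPM in CPZ 1 to 4, and 68.6, 80.2, 81.5 and 66.9 TPM in RCV 1 to 4. All 8 CPZ and RCV libraries were above all 5 CTL libraries. The log2 fold change was 0.55 ± 0.09 for CPZ against CTL (adjusted p = 0.000363) and 0.44 ± 0.09 for RCV against CTL (adjusted p = 0.0384), a 1.46-fold and a 1.36-fold difference. CPZ exceeded RCV by 0.10 ± 0.09 (adjusted p = 0.609). The call for CPZ against CTL held in all 25 alternatives. That for RCV held in 9 of 25, while the difference stayed between 0.39 and 0.49. The call was lost without any one CTL library, without CPZ 4 and without RCV 1, RCV 2 or RCV 3 (edgeR adjusted p from 0.052 to 0.171). It was also lost with limma-voom (adjusted p = 0.083) and on the TPM scale (limma adjusted p from 0.139 to 0.256). The other losses were with 2 groups in the fit, a replicate block, or RCV 3 and RCV 4 left out (edgeR adjusted p = 0.0528, 0.0859 and 0.116).

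Kcnj10 encodes Kir4.1, the inward rectifier through which astrocytes buffer potassium (ENSMUSG00000044708.5, chromosome 1, 172341210 to 172374085, plus strand). It stood at 127, 112, 143, 113 and 124 TPM in CTL 1 to 5, at 128, 137, 138 and 135 TPM in CPZ 1 to 4, and at 122, 159, 107 and 95.7 TPM in RCV 1 to 4. CPZ libraries were close together within the CTL range, and RCV libraries ran from the lowest to the highest value of all 13. The lowest pair was RCV 4 and RCV 3, the libraries with the fewest choroid plexus transcripts and the highest Slc1a2. The log2 fold change was 0.15 ± 0.12 for CPZ against CTL (adjusted p = 0.548), -0.002 ± 0.12 for RCV against CTL (adjusted p = 0.999) and 0.15 ± 0.13 for CPZ against RCV (adjusted p = 0.589).

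Slc4a4 encodes NBCe1, a sodium bicarbonate cotransporter that couples pH control to astrocyte activity (ENSMUSG00000060961.16, chromosome 5, 88886818 to 89239653, plus strand). Its levels were 78.6, 96.0, 76.5, 96.7 and 87.7 TPM in CTL 1 to 5, 98.8, 105, 101 and 82.2 TPM in CPZ 1 to 4, and 86.3, 95.6, 84.2 and 91.3 TPM in RCV 1 to 4. The groups overlapped. CPZ exceeded CTL by 0.19 ± 0.07 on the log2 scale, with a raw p of 0.0217 in the edgeR test and an adjusted p of 0.134, and RCV against CTL gave 0.05 ± 0.07 (adjusted p = 0.989).

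Aldh1l1 encodes a folate enzyme whose promoter is used to label astrocytes in mice (ENSMUSG00000030088.15, chromosome 6, 90486427 to 90600203, plus strand). It stood at 38.5, 46.6, 48.4, 47.4 and 44.4 TPM in CTL 1 to 5, at 55.5, 57.0, 58.4 and 52.0 TPM in CPZ 1 to 4, and at 42.4, 40.8, 40.9 and 47.1 TPM in RCV 1 to 4. Every CPZ library was above every other library. On the log2 scale CPZ exceeded CTL by 0.39 ± 0.08 (adjusted p = 0.00297), with 0.38 ± 0.09 for CPZ against RCV (adjusted p = 0.012) and 0.02 ± 0.08 for RCV against CTL (adjusted p = 0.998). The call against CTL held in all 25 alternatives, and that against RCV was lost without RCV 1 (adjusted p = 0.051).

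Sox9 encodes a transcription factor of glial specification that marks nearly all astrocytes of the adult brain (ENSMUSG00000000567.5, chromosome 11, 112782224 to 112787760, plus strand). Its levels were 16.01, 17.9, 19.5, 18.4 and 17.6 TPM in CTL 1 to 5, 27.3, 25.2, 24.7 and 20.9 TPM in CPZ 1 to 4, and 17.1, 21.3, 19.0 and 17.4 TPM in RCV 1 to 4. Each CPZ library was above each CTL library, while RCV 2 was above CPZ 4 in TPM and just below it in CPM. The log2 fold change was 0.48 ± 0.09 for CPZ against CTL (adjusted p = 0.00113), 0.39 ± 0.09 for CPZ against RCV (adjusted p = 0.0162) and 0.09 ± 0.09 for RCV against CTL (adjusted p = 0.977). The call against CTL held in all 25 alternatives. The call against RCV held in 18 of 25 and was lost without CPZ 1, CPZ 2 or RCV 1 (adjusted p = 0.0588, 0.0507 and 0.0671), without RCV 3 and RCV 4 together (adjusted p = 0.117) and on the TPM scale (adjusted p from 0.0754 to 0.095).

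Fgfr3 encodes an FGF receptor that astrocytes carry from early development (ENSMUSG00000054252.18, chromosome 5, 33721674 to 33737068, plus strand). It stood at 91.3, 76.9, 69.7, 93.5 and 71.3 TPM in CTL 1 to 5, at 63.6, 75.4, 55.4 and 71.2 TPM in CPZ 1 to 4, and at 78.7, 78.1, 99.6 and 70.5 TPM in RCV 1 to 4. In TPM the groups overlapped, while in CPM every CPZ library (92.3 to 112) was below every CTL library (113 to 142) and every RCV library (116 to 155). Its log2 fold change was -0.34 ± 0.09 for CPZ against RCV (adjusted p = 0.0338), -0.25 ± 0.09 for CPZ against CTL (adjusted p = 0.0853) and 0.09 ± 0.09 for RCV against CTL (adjusted p = 0.977). The call against RCV held in 14 of 25 alternatives. It was lost without RCV 1, RCV 3, CTL 5, CPZ 1, CPZ 2 or CPZ 3 (edgeR adjusted p from 0.054 to 0.116) and without RCV 3 and RCV 4 together (edgeR adjusted p = 0.126). It was also lost with the replicate number as a block (edgeR adjusted p = 0.1) and on the TPM scale (limma adjusted p from 0.294 to 0.416). Against CTL, the gene was called in 3 of 25, among them the fit without RCV 3 (adjusted p = 0.0465).

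Ratios between genes of one library do not depend on how libraries are scaled to each other. The 4 pairs were chosen with earlier results of these data known, and each joins a gene called in CPZ against CTL with one that was not, so their p-values are no independent support for the differences above. Slc1a2 exceeded Slc1a3 by a mean TPM ratio of 2.06 in CTL, 1.64 in CPZ and 1.97 in RCV. On the log2 scale the mean ratio of the 5 CTL libraries was 1.04 ± 0.16 (SD) and that of the 4 CPZ libraries 0.71 ± 0.11, a difference of -0.33 (exact two-sided permutation test, p = 0.0238). Glul to Slc1a2 fell from 2.04 in CTL to 1.67 in CPZ and was 2.00 in RCV, and no CPZ library overlapped either group (log2 difference -0.29 against CTL, p = 0.00794, and -0.26 against RCV, p = 0.0286, exact permutation test). Fgfr3 to Sox9 fell from 4.54 in CTL to 2.75 in CPZ, with 4.40 in RCV, again with no overlap (log2 difference -0.73 against CTL, p = 0.0159, and -0.69 against RCV, p = 0.0286, exact permutation test).

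For Kcnj10 to Aqp4, the test also passed between RCV and CTL. The mean ratio was 2.25 in CTL, 1.69 in CPZ and 1.63 in RCV. The log2 difference was -0.41 for CPZ against CTL (exact permutation test, p = 0.0238) and -0.48 for RCV against CTL (exact permutation test, p = 0.0159), and 0.07 for CPZ against RCV (exact permutation test, p = 0.714). The log2 ratios were 0.84 and 0.99 in RCV 1 and RCV 2, 0.39 and 0.52 in RCV 3 and RCV 4, which stand apart in choroid plexus markers, and 0.97 to 1.32 in CTL. Without RCV 3 and RCV 4 the difference from CTL was -0.25 (adjusted p = 0.3 by permutation), where 2 against 5 libraries allow no p below 0.0476. Of the 12 ratio tests, 7 passed the threshold, each at an adjusted p of 0.049 by permutation. None of the 7 passed with any 1 library of the comparison left out (adjusted p from 0.0536 to 0.122 by permutation), or with medians in place of means (adjusted p of 0.0714 or 0.0857). For the other 3 ratios, RCV against CTL gave log2 differences of -0.07, -0.03 and -0.04 with adjusted p from 0.656 to 0.833 (exact permutation test). Counting splits by the size of their difference, the lowest p allowed is 0.00794 for 4 against 5 libraries and 0.0286 for 4 against 4.

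**Figure D3:**
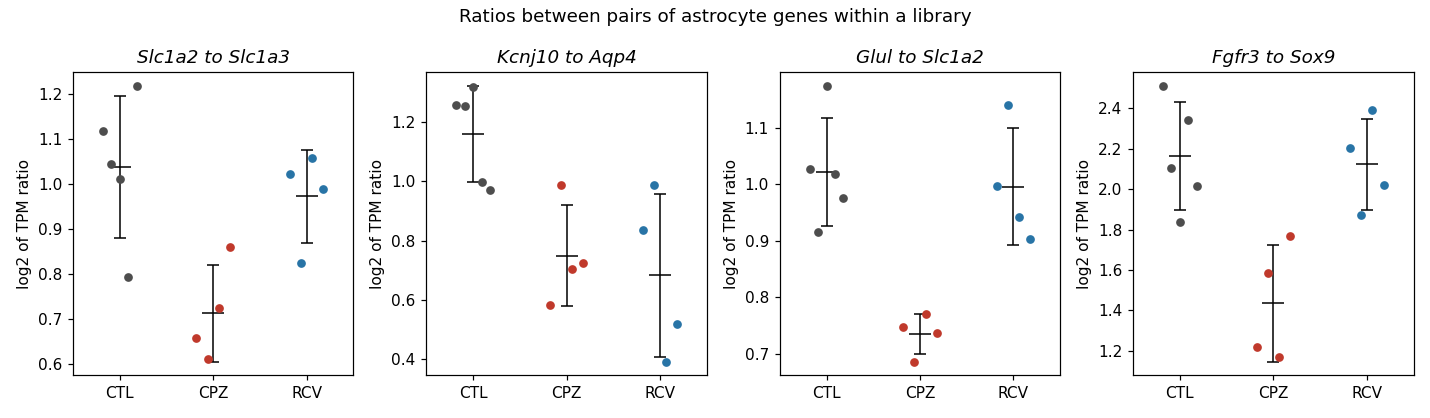
Log2 of the TPM ratio (y axis) between 2 genes of the same library, for 4 pairs of genes, in CTL, CPZ and RCV; points are libraries and black bars the mean and SD. For Glul to Slc1a2 and Fgfr3 to Sox9 the CPZ points lie below all others, and for Kcnj10 to Aqp4 RCV 1 and RCV 2 lie within the CPZ range and RCV 3 and RCV 4 below it.

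Within groups, the 10 genes rose and fell together only weakly. After group means were subtracted, the 45 pairs had a median Pearson correlation of log2-CPM of 0.21 over 13 libraries, from -0.64 to 0.70, and 28 of the 45 were positive. The highest were Slc4a4 with Sox9 (0.70) and Slc1a3 with Aldh1l1 (0.70). The lowest were Slc1a2 with Slc4a4 (-0.64) and Slc1a2 with Kcnj10 (-0.60). Slc1a2 had the lowest mean correlation with the other 9 genes, -0.09, and Fgfr3 the highest, 0.27. All values share libraries, scaling and the piece of tissue taken. Among the genes outside the set that followed it most closely were Htra3, Spire2, Rnpepl1, Zfp865, Slc2a9, Fbxw8, Pkm, Trmu and Slc35b2, with mean correlations from 0.43 to 0.41 over the 10 members, which is weak, and none of them is on a list of astrocyte genes used here.

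Other genes of the same functions moved in part. Of 12 further genes for amino acid and GABA handling, 3 were called for CPZ against CTL, all higher in CPZ (4 by DESeq2, 2 by limma-voom), and 3 for CPZ against RCV, again higher in CPZ. For RCV against CTL, edgeR, DESeq2 and limma-voom each called 0, and 0 had an unadjusted edgeR p below 0.05. Slc7a11, the cystine-glutamate exchanger, had the largest difference, with 22.2 to 30.5 TPM in CPZ, 7.11 to 11.6 in CTL and 7.33 to 12.9 in RCV (log2 fold change 1.59 ± 0.15 against CTL, adjusted p = 9.92e-06). Slc1a4 (0.35) and Slc1a5 (1.01), neutral amino acid exchangers, were also higher than in CTL, and Slc1a4 (0.39) and Slc38a3 (0.51), the glutamine exporter SNAT3, higher than in RCV. The median of the list was -0.08 for CPZ against CTL.

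Of 15 further ion, water and endfoot genes, 2 rose from CTL to CPZ, Gpr37l1 (0.42 ± 0.07, adjusted p = 0.000811) and Mlc1 (0.26 ± 0.08, adjusted p = 0.0472). Both encode membrane proteins that astrocytes concentrate, Mlc1 at the endfoot. Gpr37l1 was also higher than in RCV (0.36 ± 0.08, edgeR adjusted p = 0.00746). Counts of 2 and 1 in 15 are near the shares of all genes called higher, 7.66% against CTL and 5.13% against RCV. For RCV against CTL, 0 of the 15 were called by edgeR, DESeq2 or limma-voom (0 at an unadjusted edgeR p below 0.05). The list's median was 0.08 for CPZ and 0.05 for RCV against CTL, and 0.02 between CPZ and RCV.

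Among 18 further astrocyte markers, 3 rose from CTL to CPZ, Pla2g7 (0.50), F3 (0.47) and Cyp4f14 (0.71), and 3 fell, Mfge8 (-0.44), Fgfr2 (-0.54) and Btbd17 (-0.34). Of all genes, 7.66% were called higher in that comparison and 2.5% lower. The list's median was 0.04. For CPZ against RCV, 0 of the 18 were called by edgeR or limma-voom and 1 by DESeq2, with 6 at an unadjusted edgeR p below 0.05. For RCV against CTL, 0 were called by any of these tools, with 3 at an unadjusted edgeR p below 0.05. Of 13 astrocyte transcription factors, 1 was called, Rfx4, higher in CPZ than in CTL (0.36 ± 0.10, adjusted p = 0.0221) and than in RCV (0.51 ± 0.10, adjusted p = 0.0064), with a list median of 0.05 for CPZ against CTL. A count of 1 in 13 is near the shares of all genes called higher, 7.66% against CTL and 5.13% against RCV.

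The markers of reactive astrocytes moved much further. Against CTL, 12 of 14 tested were called higher in CPZ and 4 in RCV, with medians of 2.15 and 0.89, and 9 were higher in CPZ than in RCV, with a median of 1.00. Of all genes, 7.66%, 0.36% and 5.13% were called higher in these comparisons. Gfap stood at 111 to 163 TPM in CTL, 638 to 808 in CPZ and 377 to 603 in RCV (log2 fold change 2.43 against CTL for CPZ, adjusted p = 5.29e-07, and 1.80 for RCV, adjusted p = 0.000109). C4b, Ggta1 and Serpina3n were the others called in RCV, by 1.94, 1.01 and 1.93. Each of these Gfap differences is over 3 times the largest difference of the 10 genes on the log2 scale.

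**Figure D4:**
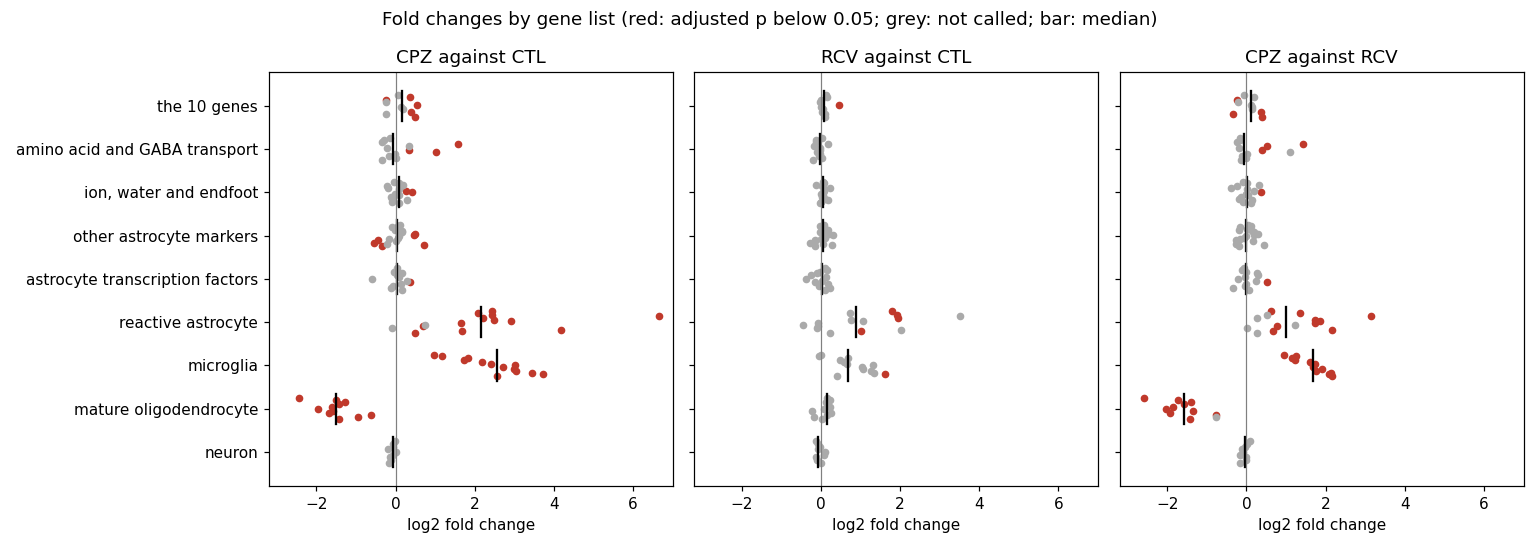
Log2 fold changes (x axis) of single genes, 1 point per gene, by list (y axis) for the 3 comparisons; red points have an adjusted p below 0.05 and black bars are medians. The 10 genes lie between -0.34 and 0.55 in all 3 panels, near the other astrocyte lists, while the reactive astrocyte and microglia lists lie far to the right for CPZ.

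Markers of other cells moved in the same libraries, and their part in the differences above was not tested. Compared with CTL, all 13 microglia markers were called higher in CPZ, with a summed level of 1937 to 4296 TPM against 467 to 570. In RCV 1 of 13, Cd68, was called higher (8 by DESeq2, 0 by limma-voom), and the sum was 770 to 1097. The shares over all genes were 7.66% higher and 2.5% lower in CPZ than in CTL, and 0.36% higher in RCV than in CTL. Between CPZ and RCV they were 5.13% higher and 1.88% lower in CPZ. The 11 mature oligodendrocyte markers were all lower in CPZ than in CTL, 0 were called in RCV against CTL (edgeR, DESeq2 and limma-voom; 0 at an unadjusted edgeR p below 0.05), and 10 were lower in CPZ than in RCV. Of 9 neuronal markers 0 were called in any comparison (edgeR, DESeq2 and limma-voom; 0 at an unadjusted edgeR p below 0.05), with sums of 4993 to 6009 TPM in CTL, 4892 to 5423 in CPZ and 4440 to 5647 in RCV. Of 9 choroid plexus and ependymal markers 0 were called (edgeR, DESeq2 and limma-voom; 0 at an unadjusted edgeR p below 0.05), with sums from 27.0 to 5197 TPM over all libraries. With RCV 3 and RCV 4 left out, Aqp4 was 0.48 above CTL in RCV (adjusted p = 0.116), and 1 of the 10 genes was called between CPZ and RCV.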

How the data were processed

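Bulk RNA-seq of 1 brain hemisphere per mouse was analysed in 13 libraries (5 CTL, 4 CPZ, 4 RCV). Per the labels, the authors sequenced poly(A) libraries of the Kapa mRNA HyperPrep Kit as paired-end reads, and their processing notes name STAR, RSEM and mm10. They deposited an estimated count per gene and library without scaling, and TPM, scaled to transcript length and to 1 fixed total per library. Groups came from the treatment labels, while the titles of RCV libraries begin with "Veh". No strand setting is stated, so overlapping genes on opposite strands cannot be told apart.

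Here, estimated counts were rounded, 92 spike-in identifiers (all 0) were left out, and filterByExpr by group set the filter, TMM the scaling, and the quasi-likelihood F test of edgeR 4.0.16 (R 4.3.3, robust) was run in 1 fit of all libraries, adjusted by Benjamini-Hochberg at 0.05. The standard error is the absolute log2 fold change divided by the square root of F. Log2-CPM used a prior count of 2. Log2 TPM ratios of 4 pairs of genes were tested by exact two-sided permutation of the difference in means, adjusted over 12 tests. P-values measure the spread between these libraries. The test was also run on counts simulated from its own fitted spread, with independent libraries. That run cannot show whether the present libraries are independent or held the same tissue. Library totals of 4605100 to 8197289 gave the 10 genes between 159 and 22972 counts each per library.

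Alternatives were DESeq2 1.42.0 (size factors, Wald test), limma 3.58.1 (voom, and log2 TPM with a pseudocount of 1 or 0.1, with at least 1 TPM in 4 libraries or unfiltered), no count filter, 2 groups per fit, a replicate block, regional scores as covariates and each library left out. The covariates of hippocampus and striatum and the fits and ratios without RCV 3 and RCV 4 were chosen after seeing the data. The members, lists and ratios were chosen with earlier results of these data known. All 10 members are named, and from each list up to 4 called genes with the smallest p, or the 1 with the smallest p. Lists rest on general knowledge. 1 of the genes with the closest patterns is not reported here. Gene positions are from GENCODE M21 (GRCm38), matched by identifier; the versions of Glul, Slc4a4 and Aqp4 differed. Same-numbered libraries of different groups correlated by -0.228 to 0.171 (12 correlations, 3 over 0.1), so the numbers were not taken as pairs. The chi-square per gene between libraries of a group was 4.5 to 17.8 (22 pairs), so none held a copy of another's counts. This cannot show whether any 2 libraries came from the same mouse. Figures were drawn with matplotlib 3.10.9.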

Additional observations from a re-analysis of the deposited data

Results flagged for a closer look

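Of 42 sets of values examined (10 genes and 4 ratios in 3 groups), 1 held a library far from the rest, where chance alone flags about 5% of such sets. Slc1a3 stood at 287.35 TPM in CTL 4, beside 230 to 240 TPM in the other 4 CTL libraries. CTL 4 also had the highest Slc6a11 of the 13 libraries (248 TPM) and, among CTL libraries, the lowest score of the mature oligodendrocyte list (mean log2-CPM 6.57, others 7.14 to 7.54). Its thalamic and midbrain score was likewise the lowest of the CTL libraries (4.19, others 4.88 to 6.06). Without CTL 4 the log2 fold change of Slc1a3 for CPZ against CTL was 0.42 (edgeR, adjusted p = 0.000811), in place of 0.36.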

How the results depend on the processing

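For CPZ against CTL, 5 of the 10 genes were called, and 4 to 6 under all 25 alternatives; Aqp4, Sox9 and Aldh1l1 were called in all of them and Slc1a3 in 24 (0.32 on log2(TPM + 1) without a filter, adjusted p = 0.0576). For RCV against CTL the 1 call became 0 with limma-voom, with log2 TPM (3 fits), with only the 2 groups in the fit and without RCV 3 and RCV 4, and 0 to 1 with each library left out. For CPZ against RCV the 4 calls became 2 with log2 TPM (3 fits) and 1 without RCV 3 and RCV 4, and 0 to 4 with each library left out, 0 of them without RCV 1. The share of all genes called moved as well. It ran from 3.44% to 12.3% for CPZ against CTL (10.2% in the main fit) and from 0.0555% to 0.711% for RCV against CTL (0.374%). For CPZ against RCV (7.01%) it was 1.65% to 3.36% with log2 TPM, 3.6% without RCV 3 and RCV 4 and 4.73% without RCV 1. The causes of these changes in calls were not tested. Where a library of the comparison was left out, its group also had fewer samples. Some calls were lost without a library outside the comparison, as that of Aqp4 for RCV against CTL without CPZ 4 (edgeR, adjusted p = 0.052). With the replicate number as a block, 4, 0 and 2 of the 10 genes were called in the 3 comparisons; the numbers do not pair the libraries. The cerebellum score used as a covariate rests on 1 gene tested of 5 listed, Neurod1. The other genes of that list stood at 1.61 TPM or less in every library. Whether the score follows cerebellar tissue was not tested. Of 750 fold changes of single members under alternatives, 691 kept their side of the threshold, 56 lost the call and 3 gained it, and none that was called changed sign. Of values that were not called, 34 member fold changes (main values up to 0.15 in size) and 10 of 136 ratio differences changed sign.

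With medians, the 7 ratio differences that passed became -0.35 (Slc1a2 to Slc1a3, CPZ against CTL), -0.54 and -0.58 (Kcnj10 to Aqp4, CPZ and RCV against CTL), -0.28 and -0.23 (Glul to Slc1a2, CPZ against CTL and RCV), and -0.70 and -0.71 (Fgfr3 to Sox9, the same), none past the threshold. With each library left out they ranged, in this order, from -0.39 to -0.28, -0.49 to -0.36, -0.58 to -0.38, -0.31 to -0.25, -0.29 to -0.21, -0.84 to -0.64 and -0.80 to -0.60; none passed, and leaving out a library raises the lowest p allowed against CTL from 0.00794 to 0.0179 or 0.0286 (exact permutation test). Without RCV 3 and RCV 4 Kcnj10 to Aqp4 against CTL became -0.25, and Glul to Slc1a2 and Fgfr3 to Sox9 for CPZ against RCV became -0.33 and -0.60, none past the threshold, where the lowest p allowed is 0.0476 for 2 against 5 libraries and 0.0667 for 4 against 2. On TMM-scaled CPM all 7 passed. Depth bounds Sox9 most, with 159 to 415 counts per library.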

Other observations

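Of 6 FGF genes whose products can bind Fgfr3, 4 had enough counts to be tested. Fgf2 was higher in CPZ than in CTL (log2 fold change 0.74 ± 0.16 standard error, edgeR adjusted p = 0.00552) and than in RCV (0.65 ± 0.17, adjusted p = 0.0301), while its receptor gene Fgfr3 was called lower in CPZ than in RCV (-0.34) and not called against CTL (-0.25, adjusted p = 0.0853). For RCV against CTL, edgeR, DESeq2 and limma-voom each called 0 of these genes, 0 had an unadjusted edgeR p below 0.05, and the smallest p was that of Fgf9 (-0.18).

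Astrocytes of different brain regions express different genes. Of 5 genes of telencephalic astrocytes, 1 was called, Mfge8, lower in CPZ than in CTL (-0.44 ± 0.10, adjusted p = 0.0115). In that comparison 2.5% of all genes were called lower and 7.66% higher. The summed level was 171 to 204 TPM in CPZ and 205 to 261 TPM in CTL, with Mfge8 alone at 87.1 to 95.2 and 118 to 135 TPM. The mean log2-CPM of the 5 genes overlapped, at 4.511 to 4.885 in CPZ and 4.739 to 4.983 in CTL. Of 5 tested genes of astrocytes outside the telencephalon, 0 were called in any comparison by edgeR or limma-voom and 1 of 6 by DESeq2, which has its own filter, for CPZ against CTL, where 2 had an unadjusted edgeR p below 0.05. Of 6 genes of oligodendrocyte precursors, 1 was called higher in CPZ than in CTL, Cspg4 (0.46 ± 0.13, edgeR adjusted p = 0.0396), beside 7.66% of all genes. Of this list limma-voom called 0 and DESeq2 1. Of 9 endothelial and pericyte genes, 1 was called, Cldn5, lower in RCV than in CTL (-0.68 ± 0.12, edgeR adjusted p = 0.0263). In that comparison 0.374% of all genes were called in either direction. Of the 9 genes limma-voom called 0 and DESeq2 2. Of 1 gene of the cerebellar list (Neurod1) and 5 thalamic and midbrain, 6 hippocampal and 7 striatal genes tested, edgeR, DESeq2 and limma-voom each called 0 in any comparison. An unadjusted edgeR p below 0.05 was seen for 0. Mean log2-CPM spread widely within groups, at 3.86 to 7.50 (striatal), 2.49 to 5.39 (hippocampal) and 3.87 to 6.33 (thalamic and midbrain) in RCV. With such spread, the absence of calls does not show equal regional content.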
